A study of Mus musculus with 30 samples.

Results

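Chromatin immunoprecipitation followed by sequencing mapped UTX after vehicle (DMSO) or MI-503 in WT-MA9, a leukaemia line of mouse myeloid cells. The comparison consists of 2 of the 30 samples of the series: the WT-MA9 UTX libraries without an Nfya label, 1 per treatment. Both come from cells that carry pMSCV-MLL-AF9-GFP, a retroviral construct for the MLL-AF9 fusion, so the fusion is present in vehicle and drug alike. Cells grew with IL6, IL3 and SCF and were harvested on day 4 of treatment, and the sources used here name no dose. The authors' peak lists held 217 places for DMSO and 14231 for MI-503. As each condition has 1 library in this comparison, there is no replicate, and no test between conditions was made.

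UTX, encoded by Kdm6a, is a demethylase that removes methyl groups placed on histone H3 by Polycomb, and it is a subunit of the MLL3 and MLL4 methyltransferase complexes. Menin, encoded by Men1, holds the related MLL1 and MLL2 complexes on chromatin, and MI-503 is an inhibitor that occupies the pocket of Menin in which MLL1 binds. The CCAAT box is a short promoter element bound by the trimeric factor NF-Y, which is known for its role at cell cycle and endoplasmic reticulum (ER) stress promoters. The series also includes NF-YA libraries, and further WT-MA9 UTX libraries in DMSO and MI-503 labelled Nfya-WT and Nfya-KO. None of these was analysed here.

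UTX in vehicle was found at few genes, and these formed a small group among the genes with UTX in drug. A gene was counted as holding UTX where a peak summit lay within 1 kb of an annotated end of the gene. By this rule 170 of 21887 protein-coding genes (0.777%) held UTX in vehicle and 7982 (36.5%) in MI-503. All 170 were among the 7982, of which they made up 2.13%, and 7812 genes held UTX in MI-503 alone. The 170 genes came from 141 peaks, because 29 peaks lay within 1 kb of the ends of 2 genes and were counted for both. Chaperones of the ER and regulators of mitosis were among the vehicle genes.

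The promoters of 7 vehicle genes and of Aurka, a mitotic kinase gene with UTX in drug alone, show the letters on which the sequence results turn. Each is the RefSeq window of 250 bases before to 50 bases after an annotated start (GRCm38.p6, the assembly of mm10), printed on the strand of the gene. Capitals mark CCAAT in either direction, CACGTG, and CCACG where it follows CCAAT after 9 bases. Hspa5 (the ER chaperone BiP, chr2:34771840-34772139, plus strand) and Herpud1 (a factor of ER-associated degradation, chr8:94386179-94386478, plus strand) stand for the ER group. Ube2c (the ubiquitin-conjugating enzyme of mitotic exit, chr2:164769679-164769978, plus strand) and Hjurp (the chaperone of centromeric CENP-A, chr1:88277530-88277829, minus strand) stand for the mitotic group. Txnip (a thioredoxin-binding arrestin, chr3:96557707-96558006, plus strand), Crebrf (a regulator of CREB3, chr17:26715400-26715699, plus strand) and Mcoln1 (a lysosomal cation channel, chr8:3500269-3500568, plus strand) were among the highest in drug. The Aurka window is chr2:172370521-172370820, minus strand.
Hspa5: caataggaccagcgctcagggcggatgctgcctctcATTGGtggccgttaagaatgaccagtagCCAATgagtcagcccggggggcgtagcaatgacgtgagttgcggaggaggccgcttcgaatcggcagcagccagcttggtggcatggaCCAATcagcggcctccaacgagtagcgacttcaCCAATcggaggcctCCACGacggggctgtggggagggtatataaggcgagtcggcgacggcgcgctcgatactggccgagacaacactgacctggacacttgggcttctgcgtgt
Herpud1: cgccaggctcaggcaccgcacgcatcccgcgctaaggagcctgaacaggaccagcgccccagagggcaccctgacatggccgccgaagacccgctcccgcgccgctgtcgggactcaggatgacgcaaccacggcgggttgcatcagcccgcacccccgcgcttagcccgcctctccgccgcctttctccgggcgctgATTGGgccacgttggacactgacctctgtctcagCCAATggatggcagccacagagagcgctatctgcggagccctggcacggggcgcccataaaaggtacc
Ube2c: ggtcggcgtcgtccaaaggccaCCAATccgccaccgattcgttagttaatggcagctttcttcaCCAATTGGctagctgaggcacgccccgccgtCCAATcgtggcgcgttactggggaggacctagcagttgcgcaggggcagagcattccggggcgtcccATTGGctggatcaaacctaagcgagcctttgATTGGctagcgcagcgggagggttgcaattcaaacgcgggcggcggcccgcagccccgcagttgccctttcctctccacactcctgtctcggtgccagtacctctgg
Txnip: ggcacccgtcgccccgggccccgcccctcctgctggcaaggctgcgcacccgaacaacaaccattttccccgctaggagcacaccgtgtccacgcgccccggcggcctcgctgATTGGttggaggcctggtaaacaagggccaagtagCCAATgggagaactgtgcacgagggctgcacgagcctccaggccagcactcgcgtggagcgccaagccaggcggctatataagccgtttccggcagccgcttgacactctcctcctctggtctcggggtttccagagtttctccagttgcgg
Crebrf: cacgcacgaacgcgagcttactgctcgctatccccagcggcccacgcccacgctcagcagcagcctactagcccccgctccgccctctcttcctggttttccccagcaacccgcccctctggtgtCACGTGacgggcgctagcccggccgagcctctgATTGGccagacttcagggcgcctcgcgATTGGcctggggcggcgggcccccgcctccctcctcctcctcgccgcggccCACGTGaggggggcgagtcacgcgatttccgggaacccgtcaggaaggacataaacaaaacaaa
Mcoln1: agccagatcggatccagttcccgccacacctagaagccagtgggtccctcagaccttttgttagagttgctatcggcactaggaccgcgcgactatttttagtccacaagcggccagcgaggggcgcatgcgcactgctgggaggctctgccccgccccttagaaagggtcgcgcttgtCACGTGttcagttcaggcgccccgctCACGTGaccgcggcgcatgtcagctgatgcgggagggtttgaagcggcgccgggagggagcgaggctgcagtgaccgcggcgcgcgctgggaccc
Hjurp: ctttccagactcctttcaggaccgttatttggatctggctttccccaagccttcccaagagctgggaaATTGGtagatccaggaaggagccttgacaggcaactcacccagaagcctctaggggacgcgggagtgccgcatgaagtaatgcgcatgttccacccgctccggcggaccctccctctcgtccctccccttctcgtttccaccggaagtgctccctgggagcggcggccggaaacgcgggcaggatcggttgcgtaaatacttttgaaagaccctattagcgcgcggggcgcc
Aurka: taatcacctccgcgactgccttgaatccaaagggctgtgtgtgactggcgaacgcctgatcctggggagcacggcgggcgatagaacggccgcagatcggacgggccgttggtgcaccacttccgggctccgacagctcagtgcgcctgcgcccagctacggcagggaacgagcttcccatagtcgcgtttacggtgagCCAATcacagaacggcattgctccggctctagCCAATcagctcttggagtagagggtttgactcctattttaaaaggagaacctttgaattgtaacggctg
In the Hspa5 window the vehicle summit lay at base 153, which is 2 bases from the centre of 1 of its 4 CCAAT boxes. In Crebrf the distance was 3 bases, in Ube2c 6, in Txnip 8 and in Herpud1 22. Ube2c has 6 CCAAT boxes in the window, and Txnip, Crebrf and Herpud1 have 2 each. Mcoln1 has none, and 2 copies of CACGTG in their place. Hjurp has 1 CCAAT, at a distance of 134 bases from the vehicle summit. In Aurka, which had no vehicle peak, the MI-503 summit lay 97 bases from the nearer of 2 CCAAT boxes.

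CCAAT lay close to the summits at vehicle places more often than to those at places seen in drug alone. Of 123 vehicle summits at least 30 bases inside a promoter window, 86 had CCAAT within 30 bases on either strand (69.9%, exact 95% interval 61.0 to 77.9%). The MI-503 summits at vehicle places gave 78 of 120 (65.0%, 55.8 to 73.5%), with an interval that overlaps that of vehicle. Of 3874 MI-503 summits without a vehicle peak, 786 did (20.3%, 19.03 to 21.6%). The same stretch of 61 bases, set at the median vehicle summit position of 78 bases before the start, held CCAAT in 15.3% of all 21238 windows and in 13.03% of the windows with neither peak. Among MI-503 summits without a vehicle peak the share followed peak height, from 7.34% of 109 in the lowest decile of the list to 33.6% of 812 in the highest. The MI-503 peaks without a vehicle peak of highest −log10 q, as many as the vehicle list is long, gave 38.7% (30.7 to 47.3%) of the 142 summits in windows. Within the vehicle list, split at its median −log10 q, the share was 77.3% of 44 above and 65.8% of 79 below, with intervals that overlap.

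**Figure D1:**
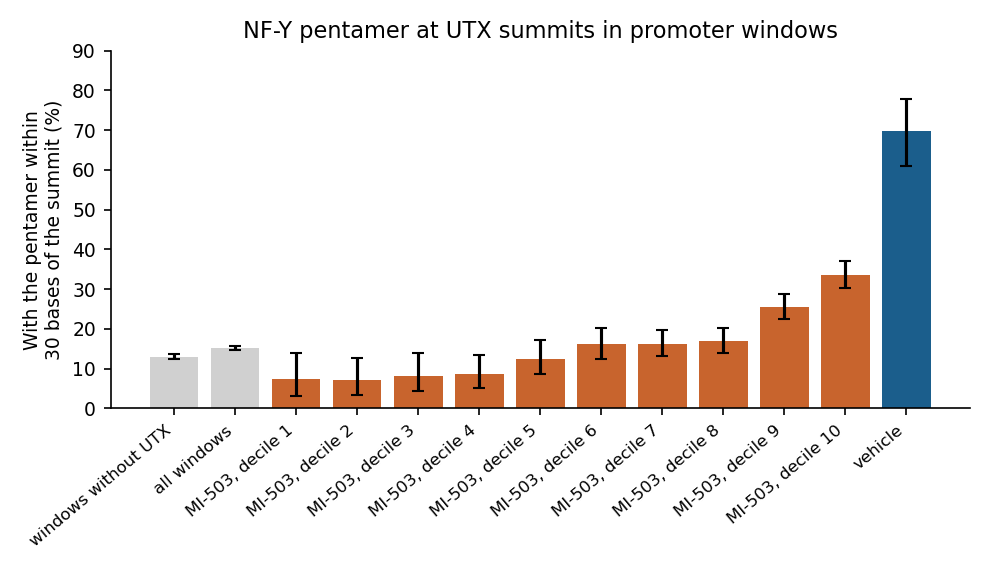
The vertical axis is the share of summits with the CCAAT pentamer within 30 bases, in percent, for windows without UTX and all windows (grey, read at the median vehicle summit position), for MI-503 peaks without a vehicle peak by decile of the MI-503 list (orange, decile 10 highest) and for vehicle peaks (blue). Bars are shares and whiskers exact 95% intervals for counting error; the orange bars run from 7.34% in the lowest decile to 33.6% in the highest, and the blue bar stands at 69.9%.

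The whole windows showed the same order, and the groups differed more in windows with 2 or more boxes than in windows with 1 or more. CCAAT was present in 136 of the 165 windows (82.4%, 75.7 to 87.9%; 151 genes) with a vehicle summit within 1 kb of the start. It was present in 40.4% of 7808 windows with MI-503 alone, in 36.3% of 13265 with neither and in 38.2% of all. The share rose with height, to 56.5% (54.0 to 59.0%) in the highest quintile of MI-503-only windows by −log10 q. Windows with 2 or more CCAAT made up 67.9% (60.2 to 74.9%) of the vehicle group, 17.1% of the MI-503-only group and 12.8% of all. Eif2ak3 (the ER stress kinase PERK), Hsp90b1 (the ER chaperone GRP94), Top2a (DNA topoisomerase II), Ube2c, and the neighbours Xrcc3 and Zfyve21, which shared 1 vehicle peak, had 6 each.

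Most other elements differed by less than CCAAT between vehicle and MI-503-only windows, except the ER stress element, its related form and GCGCATGC, which rest on 4 or fewer vehicle windows each. CACGTG, the E-box read by MITF, TFEB, USF and MYC factors, was in 20.0% (14.2 to 26.9%) of vehicle windows, 11.7% of MI-503-only windows and 7.84% of all. In the highest quintile of MI-503-only windows by −log10 q it was in 16.4% (14.6 to 18.3%), which lies inside the vehicle interval. Of the 29 vehicle windows without CCAAT, 7 had CACGTG, among them Mcoln1, Eif4g1 (a translation initiation scaffold) and Sde2 (a replication stress factor). CCAAT followed after 9 bases by CCACG, the ER stress response element, was in 3 vehicle windows, those of Hspa5, Hsp90b1 and Syvn1 (1.82%, 0.377 to 5.22%), in 0.128% of MI-503-only windows and in 0.141% of all. A related form, ATTGG then 1 base then CCACG, searched after these sequences had been seen, was in Herpud1 alone of the vehicle windows and in 11 of all. GGGCGG, the Sp1-type GC box, was in 75.8% of vehicle and 71.1% of MI-503-only windows, against 46.2% of all. CCGGAAG, read by ETS factors, was in 21.8% and 23.1%, against 11.6%. TGACGT, the core of the site read by CREB and ATF factors, was in 15.8% and 14.2%, against 8.48%. In the highest MI-503-only quintile it was in 20.6%. The full site TGACGTCA, which contains it, was in 3.64% and 4.12%, against 2.24%. GCGCATGC, read by NRF1, was in 2.42% (0.664 to 6.09%) of vehicle windows and 7.16% of MI-503-only windows, against 3.52%. AAGATGGCG (YY1) was in 4.85% and 3.83%, ACTACAATT in 0.606% and 0.756%, and TATAAA in 6.06% and 5.34%, against 1.83%, 0.509% and 12.6% of all. Median GC content was 62.0% in vehicle windows, 62.3% in MI-503-only windows and 56.3% in all. The median number of CpG sites was 22, 23 and 13.

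Vehicle summits also sat at a narrower position. Of 137 vehicle summits within 1 kb of a start, 127 lay upstream (92.7%, 87.0 to 96.4%), at a median of -78 bases and with the middle 50% between -111 and -46. The MI-503 peaks at the same places had their median at -78.5. The 7364 MI-503 summits without a vehicle peak had theirs at -17, with the middle 50% between -103 and 97 and 54.5% upstream. The share upstream grew with height here as well, from 36.8% of 457 in the lowest decile to 83.0% of 992 in the highest.

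**Figure D2:**
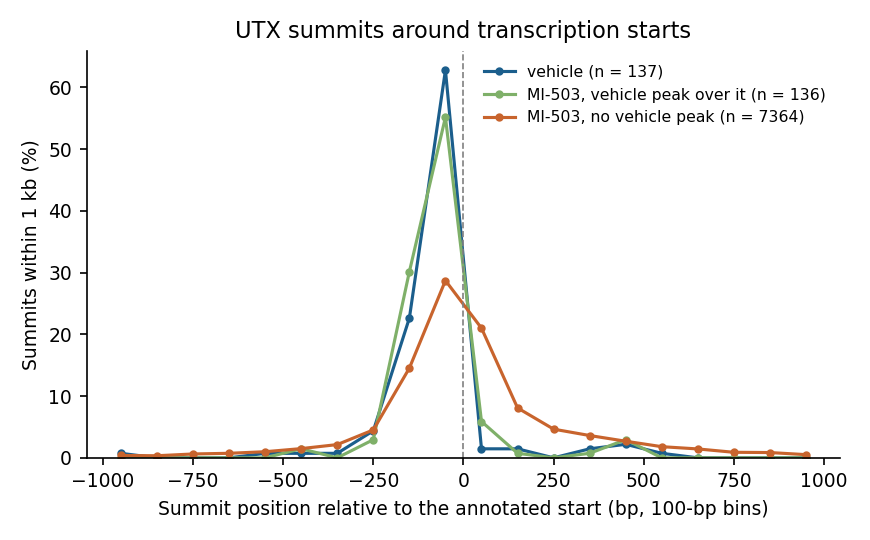
The horizontal axis is the summit's position relative to the nearest annotated start in bp (100-bp bins, negative upstream) and the vertical axis the percentage of summits within 1 kb, for vehicle peaks, MI-503 peaks under a vehicle peak and MI-503 peaks without one. Vehicle summits and the MI-503 summits at the same places crowd just upstream of the start, at medians of -78 and -78.5 bases, while the others spread to both sides with a median of -17.

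Height within each list was read as the number of fragments at the summit, recovered from the authors' fold and p-value of each peak. In the vehicle list it ran from 11 to 197 with a median of 18, and in the MI-503 list from 7 to 358 with a median of 14. The lists do not reach equally low. The lowest −log10 p was 7.53 in the vehicle list and 4.27 in the MI-503 list, and on the lowest background the lowest peak had 11 fragments in vehicle and 7 in MI-503. A gene without a vehicle peak may therefore have held up to about that number of fragments and was not shown to lack UTX. At the limit of the vehicle list, 12622 of the 14231 MI-503 peaks (88.7%) would remain. The vehicle library was the deeper one, by a factor of 1.14 or more from the pileup steps and of 1.55 from the lowest backgrounds and narrowest peaks. Absolute depth is unknown.

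The MI-503 peaks at vehicle places were the high ones of their own list. Of the 198 MI-503 peaks under a vehicle peak, 150 (75.8%, 69.2 to 81.6%) stood in the highest decile of the list by −log10 q. They made up 10.5% of that decile and at most 1.83% of any other. The 20 highest MI-503 peaks included 15 of them, the highest 50 included 29 and the highest 100 included 38. Their median height was 47.5 fragments and their median width 491.5 bp. The 14033 others had medians of 14 fragments and 261 bp. Some of the highest MI-503 peaks with a vehicle peak stood on high backgrounds. Those nearest to Esp38, Filip1l and Zc3h7a, at ranks 2, 4 and 5, had 28.5, 8.91 and 6.24 times the lowest. With peaks on a background 3 or more times the lowest left out, 140 of 171 (81.9%) stood in the highest decile. The part of input counts in the top ranks was not tested.

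**Figure D3:**
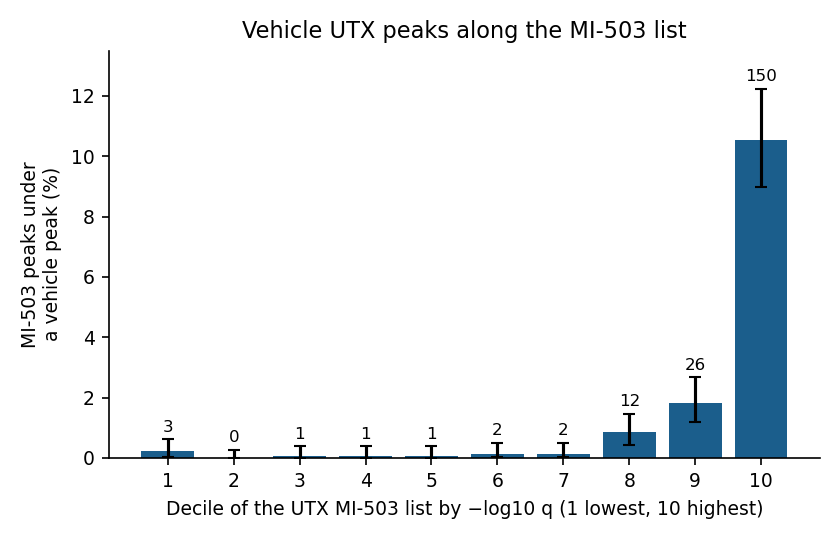
Bars give the percentage of MI-503 peaks under a vehicle peak in each decile of the MI-503 list by −log10 q (1 lowest, 10 highest), with exact 95% intervals for counting error and the number of such peaks above each bar. The highest decile holds 150 of the 198 and stands at 10.5%, and the decile below it at 1.83%.

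At the shared places the unadjusted counts were higher in the MI-503 library. The narrowest peak, taken as the fragment length, was 127 bp in the vehicle list and 179 bp in the MI-503 list. Longer fragments raise the count at a summit, and the counts were adjusted for neither length nor depth. There were 172 shared places where neither list stood on input-rich ground, meaning a background 3 or more times that list's minimum. Their median was 16 fragments in vehicle and 47 in MI-503. The MI-503 number was the higher at 164 of them, and it was not higher at 8. At gene boundaries these numbers were 136 and 3. The 3 exceptions were Men1 with 13 fragments in both, the zinc finger gene Zfp956 with 17 in both, and Runx3, a haematopoietic transcription factor, with 12 in vehicle and 10 in MI-503; they were singled out after their values were seen. By the authors' fold, which is relative to each list's own background, Men1 (6.89 in vehicle and 7.66 in MI-503) and Zfp956 (8.83 and 9.85) were higher in MI-503, and Runx3 (6.398 and 6.019) was not. Spearman's rho between the vehicle and MI-503 heights was 0.06 across the 172, 0.15 across the 139 at gene boundaries and 0.21 across all 204 shared places, as a description of peaks that share 1 input library and, in vehicle, a narrow range above the limit of the list. Most vehicle heights there lay between 14 and 22 fragments (10th to 90th percentile), and the MI-503 heights between 28.1 and 71.

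**Figure D4:**
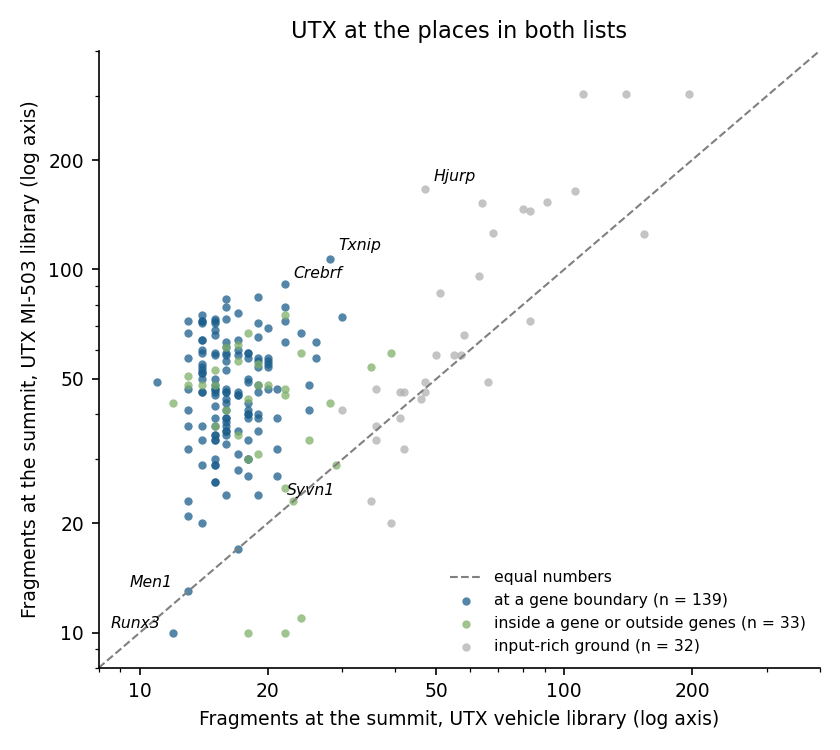
Each point is a vehicle peak with an MI-503 peak over it, with the number of fragments at the summit in the vehicle library (horizontal, log axis) and in the MI-503 library (vertical, log axis), for gene boundaries (blue), other places (green) and input-rich ground (grey); the dashed line marks equal numbers. Outside input-rich ground 164 of 172 points lie above the line, and Men1 and Runx3 are at or below it; the 3 grey points at 305 share 1 MI-503 peak.

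Hjurp was the boundary peak of highest −log10 q in both lists, with 47 fragments in vehicle and 166 in MI-503, and its background was 3.45 times the lowest of the list in both. Isoc2a had 24 and 67 fragments, and Epb41, which encodes the cytoskeletal protein 4.1R, had 22 and 72. Ensa, whose product restrains the phosphatase PP2A during mitosis, had 26 and 63. Ttf2 (a transcription termination factor) had 25 and 48, Sfpq (a splicing and paraspeckle protein) 20 and 47, and Rbm27 22 and 79.

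Txnip had 28 fragments in vehicle and 107 in MI-503, Crebrf 22 and 91, and Mcoln1 19 and 84. These ranked 3, 6 and 8 of all MI-503 peaks by −log10 q. Slc46a3 had 21 and 32, and Zfp593 had 25 and 41. Dock3 and Manf, which lie beside each other, shared 1 peak with 19 and 56, and Mrpl37 and Cyb5rl shared 1 with 21 and 39. Cramp1l and Jpt2 had 19 fragments each in vehicle, and 59 and 54 in MI-503. Taf6l, a subunit of the SAGA coactivator, had 19 and 48, and Ppp1r35, a centriole protein gene, had 19 and 36. Lars2 and Sfi1 had 83 and 55 fragments in vehicle, and 72 and 58 in MI-503, but on backgrounds 23.9 and 11.5 times the lowest of the vehicle list. Input counts move with height at these 2 genes, and their part in it was not tested.

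Genes of ER folding and of the unfolded protein response held UTX in vehicle in 6 of 30 cases (20.0%, 7.71 to 38.6%), against 0.777% of all genes. In MI-503 28 of 30 held it (93.3%), against 36.5%, at a median of 43 fragments, where all genes with an MI-503 peak had a median of 20 (middle 50% 13 to 29). The list was chosen with earlier results of these data known, so its shares are a description. Herpud1 had 14 fragments in vehicle and 72 in MI-503. Hspa5 had 16 and 58, and its partner Hsp90b1 14 and 46. Manf, a secreted ER stress factor, had 19 and 56, and the kinase gene Eif2ak3 had 18 and 40. Syvn1, the ubiquitin ligase of ER-associated degradation, had 21 and 27, the smallest difference of the 6. Among the 22 with MI-503 alone, the BiP co-chaperone gene Dnajb9 had 73 fragments, Sdf2l1 70, and the lectin chaperone genes Canx and Calr 63 and 58. The sensor gene Atf6 and Edem1 had neither. Of 31 genes of ER translocation, glycosylation and exit, Rpn2, a subunit of the oligosaccharyltransferase, had a vehicle peak (19 and 39), and 24 had MI-503 alone. Of 26 cytosolic chaperone genes, the co-chaperone Stip1 had one (14 and 37), and 22 had MI-503 alone, with Dnajb1 at 68 and Hspa8 at 60.

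Mitotic genes chosen for NF-Y binding at their promoters held UTX in vehicle in 5 of 30 cases (16.7%, 5.64 to 34.7%), and 23 more in MI-503 alone. This list was chosen by its promoter factor, so its CCAAT content is no separate observation. Beside Hjurp, Cdc25a (the phosphatase that activates CDKs) had 20 fragments in vehicle and 54 in MI-503, Cenpf (a kinetochore protein) 18 and 57, Ube2c 18 and 59, and Top2a 16 and 36. Ttk, Prc1, Kif23, Cenpa and Aurka had MI-503 alone, with 44, 39, 40, 32 and 31 fragments. Bub1b and Kif2c had neither. Of 30 DNA replication genes 0 held UTX in vehicle, a count that 0.777% of all genes would also give, and 25 held it in MI-503, with Pcna, the sliding clamp, at 49 fragments and Mcm5 at 39. Of 30 DNA repair genes 26 had MI-503 alone, led by the checkpoint kinase gene Atm with 55. The MI-503 counts of these 3 lists stand beside 36.5% of all genes and 85.0% of 20 housekeeping reference genes.

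Amino acid supply and nutrient sensing lists held 1 or 2 vehicle genes each. A single member in lists of this size is too few to be set apart from the 0.777% of all genes. In MI-503 the share was 36.5% of all genes and 85.0% of 20 housekeeping reference genes. Of 20 genes of serine, one-carbon and amino acid supply, Pycr1 (proline synthesis) had 19 fragments in vehicle and 46 in MI-503, and Chac1 (glutathione degradation) had 15 and 72. Sesn2 and Asns were among the 14 with MI-503 alone, at 43 and 25. Of the ATF, CREB and integrated stress genes, Crebrf was the single vehicle member of 26, and 20 had MI-503 alone. Txnip was the single one of 19 glucose-sensing and growth-restraining genes, and its relative Arrdc4 had MI-503 alone at 36. Mcoln1 was the single one of 36 lysosome and autophagy genes, of which 33 had MI-503 alone, led by Rragc (a GTPase that signals amino acids to mTORC1) at 73. The clock gene Per2 had 14 and 64 fragments, and Ciart, Dbp and Per1 had MI-503 alone at their boundaries with 71, 57 and 43. Per1 also had a vehicle peak of 22 fragments inside the gene, at -79 bases from an annotated start. Mxd4, which encodes a repressor partner of MAX, had 15 and 35. Myc had MI-503 alone, with 11 fragments.

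Of 78 mitochondrial ribosomal protein genes 3 held UTX in vehicle (Mrpl37, Mrps12 and Mrpl49; 3.85%, 0.8003 to 10.8%), against 0.777% of all genes, and 55 had MI-503 alone. Of 93 respiratory chain genes 2 did (Atp5e and Atp5b, subunits of ATP synthase; 2.15%, 0.262 to 7.55%), and 66 had MI-503 alone. In MI-503, UTX was held by 36.5% of all genes and 85.0% of 20 housekeeping reference genes. Of 364 solute carriers 7 had a vehicle peak (1.92%), among them Slc25a3, Slc25a29, Slc25a42, Slc25a17 and Slc25a36 of the mitochondrial carrier family Slc25. The phosphate carrier gene Slc25a3 had 19 fragments in vehicle and 71 in MI-503. The family was noticed among the members after their values were seen.

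Other lists of growth genes had no vehicle member or 1, counts too small to be set apart from the 0.777% of all genes. Their MI-503 counts stand beside 36.5% of all genes and 85.0% of 20 housekeeping reference genes. Of 84 listed cytosolic ribosomal protein genes 0 had a vehicle peak, and 73 had one in MI-503 at a median of 22 fragments. Fau, a ribosomal protein gene outside that list, shared the vehicle peak of Mrpl49. Of 30 cholesterol and lipid synthesis genes 0 had a vehicle peak and 26 had MI-503 alone, where Hsd17b7 had 63 fragments and Srebf2, the regulator of sterol synthesis genes, had 59. Among 20 aminoacyl-tRNA synthetases 19 had MI-503 alone, and among 36 genes of RNA polymerase II, Mediator and elongation 32 did, led by Med13 at 71. Single vehicle members were Psma5 of 32 proteasome genes (20 and 55), Hnrnpc of 34 splicing factors (13 and 37), Eif4g1 of 25 translation factors (16 and 47) and Map2k1, the kinase MEK1, of 43 MAP kinase genes (20 and 69).

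**Figure D5:**
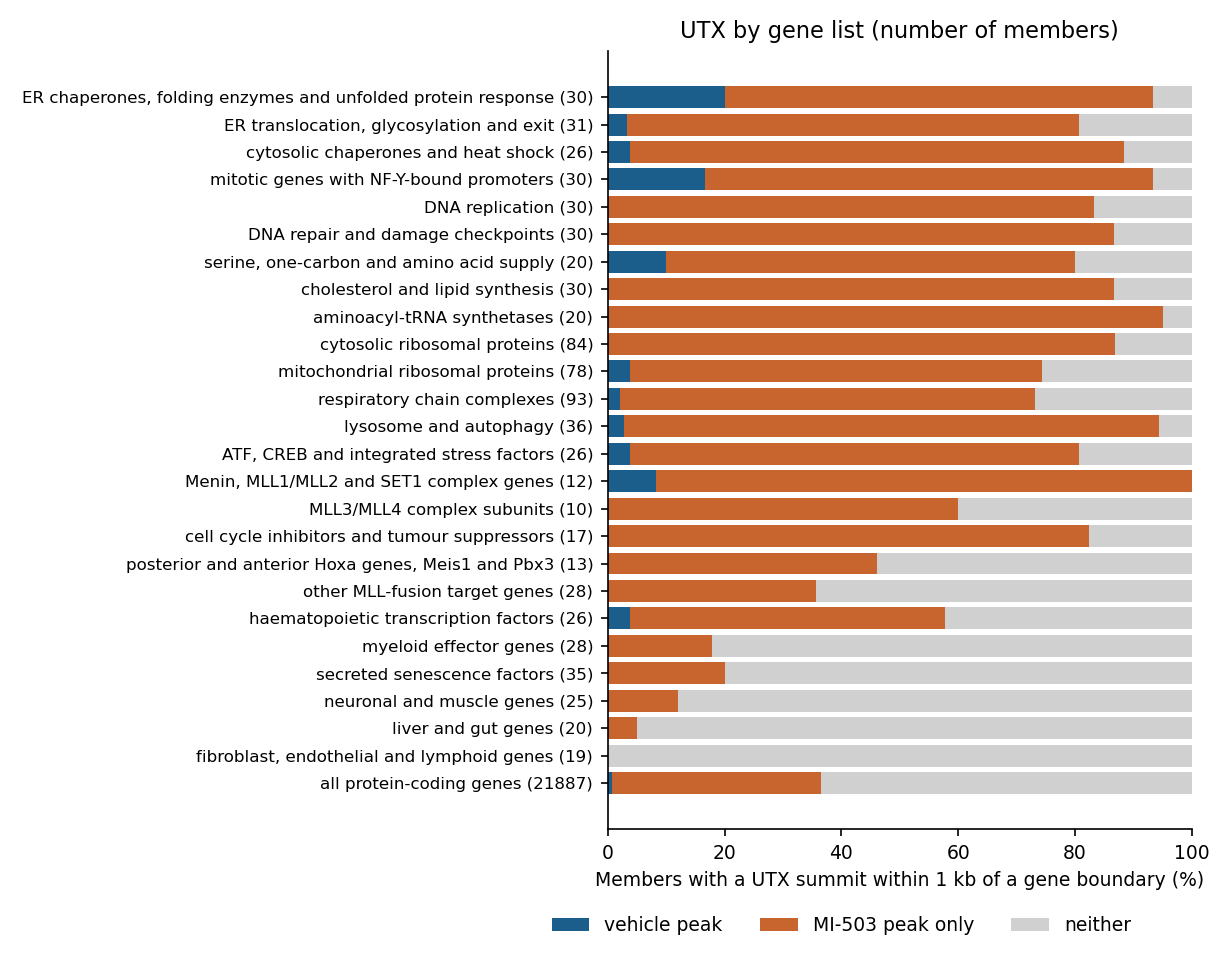
Each bar is a gene list with its number of members, split into the percentage with a vehicle UTX summit within 1 kb of a gene boundary (blue), with an MI-503 summit alone (orange) and with neither (grey); the lowest bar gives all 21887 protein-coding genes. The ER folding list (20.0%) and the mitotic list (16.7%) have the longest blue parts of the lists drawn, and lists of other tissues are largely grey. All lists were chosen with earlier results of these data known.

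The genes with UTX in drug alone are named here by their rank in the MI-503 list, so their height is a description. Fbxw7, the ubiquitin ligase subunit that degrades MYC and cyclin E, had 85 fragments, and Stxbp3 had 82. The AP-1 gene Junb had 81, the splicing repressor gene Ptbp1 79 and Uqcrfs1, of respiratory complex III, 77. Rrbp1, an ER ribosome-binding protein gene, and Cnpy3 had 72 each. H2-DMa, a chaperone gene of MHC class II loading, had 71. Clk2 and Scamp3 shared 1 peak of 71, and Ankrd16 and Fbh1 shared 1 of 70. Dcaf7, Eif4e (the cap-binding protein), Ticrr and Zfp706 had 66 to 68.

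Of the genes that encode the complexes themselves, Men1 alone held UTX in vehicle. It was 1 of 12 genes of the Menin, MLL1, MLL2 and SET1 complexes (8.33%, 0.211 to 38.5%, against 0.777% of all genes), and the other 11 had MI-503 alone, Kmt2a (MLL1) with 35 fragments. Of 10 MLL3 and MLL4 complex genes 6 had MI-503 alone, Kmt2d (MLL4) with 59 and Kmt2c (MLL3) with 18. Kdm6a itself had neither. Nfya, Cebpz and Nfyb had MI-503 alone, with 38, 25 and 11. Of 17 genes that restrain the cell cycle or suppress tumours, 14 had MI-503 alone (82.4%, against 36.5% of all genes in MI-503). Besides Fbxw7, Btg1 had 65 fragments, Cdkn2d 56 and Cdkn2b 19. The share was not particular to this list, as 17 of 20 housekeeping reference genes (85.0%) also had MI-503 alone. Of 13 Hoxa, Meis1 and Pbx3 genes, the programme driven by MLL fusions, none had a vehicle peak and 6 had MI-503 alone, with 40 at Hoxa11, 34 at Pbx3 and 11 at Meis1. Of 28 other MLL-fusion targets 10 (35.7%) had MI-503 alone, near the 36.5% of all genes.

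Lineage lists fell on both sides of the 36.5% of all genes in MI-503. Of 26 haematopoietic transcription factor genes 15 held UTX in MI-503 (57.7%), Runx3 with a vehicle peak and 14 without, with the myeloid master regulator gene Spi1 at 28 fragments. Of 28 myeloid effector genes 5 (17.9%) had MI-503 alone, and Mpo and Elane had neither. The share in MI-503 was 3 of 25 neuronal and muscle genes, 1 of 20 liver and gut genes and 0 of 19 fibroblast, endothelial and lymphoid genes. It was 1 of 1106 olfactory receptors and 1 of 353 vomeronasal receptors. Secreted senescence factors had 7 of 35, at a median of 14 fragments. UTX peaks do not measure RNA, so the labelled cell type could be read only from which lineage genes lay near a peak.

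Vehicle places also differed in Menin, in the vehicle Menin list of the same cells. At gene boundaries Menin overlapped 141 of the 144 MI-503 peaks with a vehicle UTX peak (97.9%, 94.0 to 99.6%), and 5463 of the 8113 without one (67.3%, 66.3 to 68.4%). Inside genes the shares were 75% of 24 and 34.6% of 3600, and outside genes 70.0% of 30 and 30.7% of 2320. The Menin share also followed UTX height, from 18.3% in the lowest decile of the MI-503 list to 99.4% in the highest, where most vehicle places stood. Whether Menin was tied to the vehicle peak beyond that height was not tested.

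Away from gene boundaries, input-rich ground was common in the vehicle list. Of the 217 vehicle peaks 144 (66.4%) lay at a boundary, 28 inside genes and 45 outside. The boundary peaks had a median background of 0.914 fragments, and those outside genes 2.0. On input-rich ground were 34 of the 73 peaks away from boundaries (46.6%) and 5 of the 144 at them (3.47%). In all these were 39 vehicle peaks (17.97%), against 227 of the MI-503 peaks (1.60%). The highest vehicle peak, of 197 fragments, was 1 of 3 outside genes on chromosome 17, nearest to Esp38, under a single MI-503 peak of 305 fragments, the widest of that list at 6060 bp. Next by −log10 q were peaks inside Filip1l (106 and 164 fragments) and Zc3h7a (83 and 145), on backgrounds 11.3 and 6.28 times the lowest. Among MI-503 peaks away from boundaries, those inside Hnrnpl (84 fragments, no vehicle peak) and Per1 (75, with one) were on the lowest background. Their summits lay at -71 and -98 bases from an annotated start, because a start inside a gene was not counted as a boundary. Kmt2e, Zfp687 and Rbm15 had wide MI-503 peaks of 1679, 1664 and 1642 bp.

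The 13 vehicle peaks without an MI-503 peak over them were also away from genes' ends. None lay at a gene boundary, and 7 were on input-rich ground. In or near Sfi1 on chromosome 11 there were 4, with 46 to 62 fragments on backgrounds 12.6 to 20.1 times the lowest. Scaf8 on chromosome 17 was the nearest gene of 3 and Vmn1r2 on chromosome 4 of 2. The others were nearest to Man1a, Olfr161, Rbfox1 and Frmd4a. On chromosome X there was no vehicle peak among 217, and 171 of the 14231 MI-503 peaks (1.20%) lay there, against 4.41% of protein-coding genes.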

How the data were processed

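UTX was immunoprecipitated from WT-MA9 cells in DMSO and in MI-503, 1 library each. Peaks were called with MACS2 on mm10, per the submitters' processing notes; for aligner, filters and q cutoff: not given in the sources used here. Per the file's peak names, both UTX lists used the same vehicle input. The deposited fold is the ratio of pileup plus 1 to background plus 1, and the deposited −log10 values give each summit's p-value and its q-value. The deposited score equals 10 times −log10 q without its decimals, checked in all 14448 UTX peaks.

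Fold and p-value were solved together for whole fragments at the summit and for the background, which matched within 0.002 on the −log10 scale for 100% of peaks in both lists. The code was tested on simulated data. Python 3.11.15, NumPy 2.4.6, SciPy 1.17.1 and pandas 2.3.3 were used. Gene ends came from RefSeq (GRCm38.p6, without strand), and starts from the RefSeq promoter table (17492 of 21887 genes). Peaks overlapped if they shared at least 1 bp. The 95% intervals (exact, Clopper-Pearson) measure counting error alone; neighbouring genes and peaks are not independent. No p-value was computed.

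The comparison, gene lists (59, with 5 symbols unmatched) and motifs were chosen with earlier results of these data known. Genes named were, per list, up to 8 with a vehicle peak, 6 with MI-503 alone and 4 with neither. So were the 25 highest vehicle genes, the 20 highest MI-503-only genes and every vehicle peak without an MI-503 peak. The rule also took the 10 highest vehicle peaks, the 5 highest MI-503 peaks away from gene boundaries and the 5 widest MI-503 peaks. Gm and Rik symbols were not named. Some genes that the rule takes are left out of the text. Alternatives covered thresholds, window, overlap, gene set and input-rich peaks. The vehicle Menin list was used, and the other 27 samples were not analysed here.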

Additional observations from a re-analysis of the deposited data

How the results depend on the processing

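No paired analysis was possible because each condition has 1 library, and no replicate could be left out. Of 31 alternatives, 25 left the value within 1.5 times (counts) or within its interval (shares), among them all of those for the genes with UTX and for the gene lists. Genes with vehicle UTX numbered 151 to 211 and genes with MI-503 UTX 6831 to 9673. The share of vehicle peaks under an MI-503 peak was 94.0%, 13.8% with a shared length of 50% or more of each peak (widths differ, with medians of 144 and 264 bp), and 30.4% against as many of the highest MI-503 peaks as the vehicle list has. The share of MI-503 peaks under a vehicle peak in the highest decile was 75.8%, 81.9% without input-rich peaks and 81.8% when ranked by fragments. CCAAT was in 82.4% of vehicle windows, and in 88.3% where the start lay within 200 bp of a summit. Menin overlapped 90.9% of the MI-503 peaks at vehicle places, and 71.2% where 50% of both had to be shared. Ranking by fragments, the 200 bp limit, the removal of input-rich peaks from the gene lists and promoter windows, and the limit of −log10 p at 7.53 were chosen after seeing the data; with that limit 7657 genes held UTX in MI-503. The vehicle list ends at 11 fragments on the lowest background and the MI-503 list at 7; whether depth or the calling cutoff sets this was not tested.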
